A study of Mus musculus with 18 samples.

Results

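Most of the genes described here encode constitutive subunits of the proteasome. The genes were taken as every gene whose symbol is Psma, Psmb, Psmc or Psmd followed by a number, without the inducible Psmb8, Psmb9 and Psmb10. The symbols also take in the assembly chaperones Psmd5, Psmd9 and Psmd10 and the tissue-restricted Psma8 and Psmb11. This rule gave 36 genes, of 17759 genes in the crypt table, 17423 in the day 1 table and 17612 in the day 3 table. The study sequenced mRNA from the duodenal epithelium of WT mice (Mtgr1+/+) and of mice globally lacking MTGR1 (Mtgr1-/-), a transcriptional corepressor encoded by Cbfa2t2. The enteroids came from mice 8 to 12 weeks old, and no treatment or other allele is given in the labels for either genotype. For each genotype, 3 separate mice gave freshly isolated crypts (day 0) and enteroids cultured for 24 h (day 1) or 72 h (day 3), which makes 18 libraries in 6 groups of 3. Enteroids are epithelial cultures grown in a gel matrix from isolated crypts. The labels do not give the extent of the Mtgr1 deletion. Cbfa2t2 mRNA was not lower in the libraries labelled Mtgr1-/- (697, 466 and 534 normalized counts against 614, 523 and 595 in WT crypts), so the genotype is used here as the label of each library.

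The proteasome degrades proteins that carry chains of ubiquitin. Its 20S core is a barrel of stacked rings, with outer rings of alpha subunits that gate the entrance and inner rings of beta subunits that hold the proteolytic sites. The 19S cap binds ubiquitin, removes it, unfolds the protein with a ring of ATPases and feeds it into the core. Every cell of the intestinal epithelium needs this machinery, and the subunits are assembled in fixed proportion to one another, which makes the genes a family whose mRNA levels are commonly compared as a set. The transcription factor NRF1 (Nfe2l1), which acts on antioxidant response elements, is known to raise subunit genes together when proteasome activity is limiting.

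The promoter sequences are shown because this element is the known route by which subunit genes are raised together. RefSeq promoters on GRCm38.p6 were at hand for 29 of the 36 genes, and the 250 bases before each start were searched on both strands for the core of the antioxidant response element, TGACNNNGC, and for the CCAAT box, CCAAT. The first stood in 5 of the 29 genes (17.2%), beside 3112 of 27025 genes with a promoter of the same length (11.5%). The CCAAT box stood in 12 of 29 (41.4%), beside 10133 of all genes (37.5%), and 5 of the 7 genes of the alpha ring with a promoter had it. A match is a description of the letters and does not show that a factor binds. The 5 element matches are given 5′ to 3′ on the strand of the gene, with the matched bases in capitals, which on the reverse strand read as the reverse complement.
Psmb5, catalytic beta subunit, chr14:54618024-54618052, minus strand, 47 bases before the start: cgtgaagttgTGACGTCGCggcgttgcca
Psmb6, catalytic beta subunit, chr11:70525338-70525356, plus strand, 9 bases before the start: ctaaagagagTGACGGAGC
Psmd9, assembly chaperone of the cap, chr5:123228149-123228177, plus strand, 31 bases before the start: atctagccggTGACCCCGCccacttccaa
Psmc6, ATPase of the base, chr14:45329587-45329615, plus strand, 227 bases before the start, match on the reverse strand: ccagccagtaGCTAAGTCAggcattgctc
Psmd12, lid subunit, chr11:107479278-107479299, plus strand, 247 bases before the start, match on the reverse strand: tctGCTGTGTCAcatttgcccc

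The promoter of Psmd4, which encodes a ubiquitin receptor of the cap, is printed whole because this gene had the largest genotype difference of the family in enteroids. Its 250 bases before the start (chr3:95042615-95042864 of GRCm38.p6, minus strand) held no antioxidant response element core. They held 1 CCAAT box on the reverse strand, 95 bases before the start, which is the run in capitals.
Psmd4: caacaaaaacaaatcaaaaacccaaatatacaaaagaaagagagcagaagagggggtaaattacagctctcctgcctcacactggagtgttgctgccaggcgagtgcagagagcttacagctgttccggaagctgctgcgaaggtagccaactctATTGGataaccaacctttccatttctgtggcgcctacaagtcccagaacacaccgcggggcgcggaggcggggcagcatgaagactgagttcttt

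The family was expressed in all 18 libraries. Values are normalized counts, which are the gene-level counts of a library divided by 1 factor of the authors, and the tables of the 3 time points were normalized separately, so levels are set side by side across tables only as a description. At each time point, 34 of the 36 genes reached the mean of 10 normalized counts that was required for testing, in a total of 12980 tested genes for crypts, 12587 for day 1 and 12782 for day 3. The means of these 34 genes lay between 514 and 5862 in crypts, between 579 and 9318 at day 1 and between 526 and 7309 at day 3. The other 2 genes are known for expression in single tissues and stayed near 0. Psma8, the alpha subunit of the testis, had 1.92, 3.96 and 9.21 normalized counts in the WT crypts and 0.942, 0 and 0 in the Mtgr1-/- crypts, and it was listed at 0 in all 6 Mtgr1-/- enteroid libraries against 0 to 7.74 in the WT enteroids. Psmb11, the beta subunit of the thymic cortex, stayed at or below 4.48 in every library. Neither gene was tested.

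The order of the subunits was read per kilobase of the longest coding transcript. In WT crypts, the mean normalized count per kilobase was 3595 for Psma4 and 3376 for Psmb6 at the top of the family, and 1014 for Psma3 at the bottom of the core. Among the base subunits it was 1904 for Psmd2, a large scaffold of the cap, and 1086 for Psmd4. The 3 assembly chaperones matched by the rule, which leave the cap once it is built, were the lowest of the expressed members, with 360 for Psmd10, 192 for Psmd9 and 182 for Psmd5. At day 1, Psmb6 led with 4732 in WT and 4990 in Mtgr1-/-, and Psmd9 was lowest with 259 and 229. The order of the core genes depends on the transcript taken for the length. Psma3 had a mean of 2885 normalized counts in WT crypts over 2846 bases, and Psma5 had 2751 over 1239 bases. These levels per kilobase are descriptions of the order and were not tested.

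**Figure D1:**
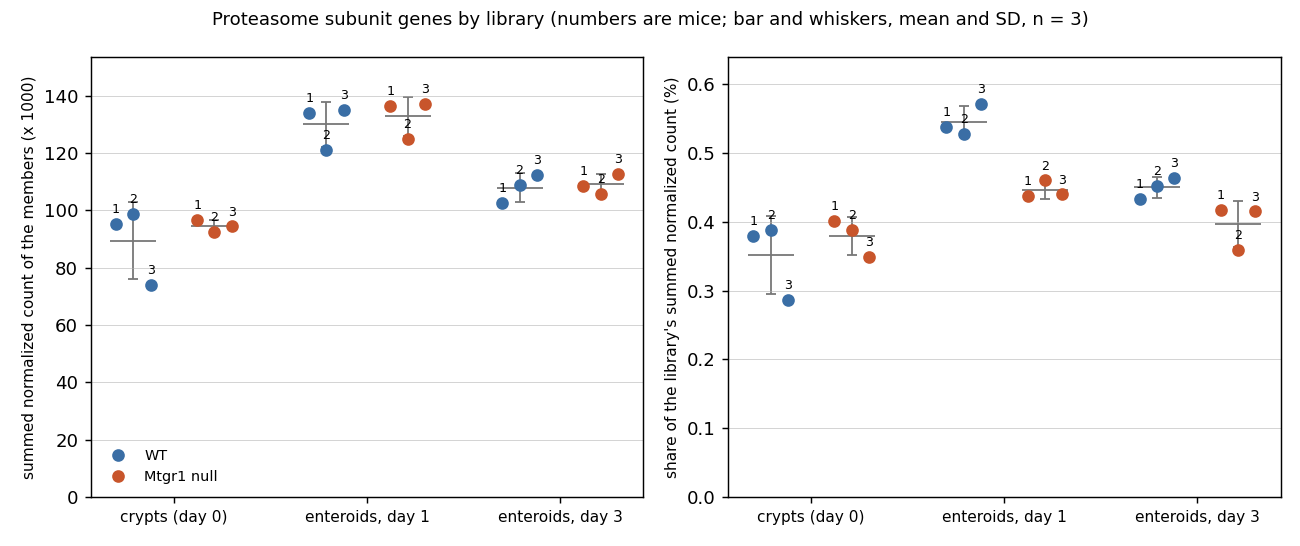
The left panel plots the summed normalized count of the 36 genes, and the right panel plots this sum as a percent of all normalized counts of the library, for each of the 18 libraries by time point (blue WT, orange Mtgr1-/-, numbers are mice, bar and whiskers mean and SD of 3 libraries). The sums of the genotypes overlap at every time point, WT crypt library 3 stands below the other crypt libraries in both panels, and within each enteroid day the shares of the Mtgr1-/- libraries lie below those of WT.

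Added over the 36 genes, the normalized counts of the genotypes overlapped at every time point. In crypts the sums were 95144, 98920 and 74032 in WT and 96616, 92388 and 94407 in Mtgr1-/-, and WT crypt library 3 was the low one. At day 1 they were 134052, 121102 and 134959 in WT against 136477, 124901 and 137024, and at day 3 they were 102521, 108761 and 112451 against 108678, 105803 and 112869. The 20S core genes and the 19S cap genes, the latter with the assembly chaperones, did so separately as well. At day 1 the core summed to 55126 ± 2655 in WT and 56104 ± 3543 in Mtgr1-/-, and the cap to 74912 ± 5176 and 76697 ± 3305 (SD, n = 3).

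As a share of all normalized counts of the library, the same genes gave a different picture in enteroids. At day 1 they made up 0.538%, 0.528% and 0.571% of the WT libraries and 0.438%, 0.460% and 0.440% of the Mtgr1-/- libraries, and at day 3 0.434%, 0.453% and 0.464% against 0.417%, 0.359% and 0.415%. The groups did not overlap at either day. In crypts the shares were 0.380%, 0.389% and 0.287% against 0.402%, 0.388% and 0.349%, and they overlapped. The denominator moved with genotype, since the normalized counts of all genes summed to 29813400 ± 2314080 in the Mtgr1-/- day 1 libraries and to 23833200 ± 996573 in WT (SD, n = 3), and markers of enterocytes, the absorptive cells, summed to between 454361 and 736580 against 246560 to 327885, with 10 of 10 detected. Of the 10 markers, 9 were higher and 1 was lower at an adjusted p below 0.05 (limma), where 30.0% and 28.9% of all genes were. Their log2 fold changes ran from -2.59 to 3.27. The part of these genes in the share was not tested. In bulk RNA, fewer cells of a type and less RNA per cell cannot be told apart.

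In crypts, the question was whether the genotypes differ before culture, and 0 of the 34 proteasome genes passed an adjusted p of 0.05 (limma on log2 normalized counts, Benjamini-Hochberg over all genes), where 4.73% of all genes tested passed, 1.58% higher and 3.15% lower in Mtgr1-/-, and 2.96% of the genes whose mean lay in the range of the family. At an unadjusted p below 0.05 the count was 1, against 2395 of all 12980 genes. On recovered reads edgeR and DESeq2, fitted without WT library 2 whose reads could not be recovered, also gave 0. They called 1.58% and 9.17% of all genes. The groups did not overlap for 1 of the 34 genes, against 25.5% of all genes. The median log2 fold change (Mtgr1-/- minus WT) was 0.10 over the family and 0.0076 over all genes, 31 of the 34 estimates were above 0, and they ranged from -0.10 to 0.32.

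The sign of the crypt estimates rested on 1 library. WT crypt library 3 was the lowest of its group for 34 of the 34 genes, where this held for 44.2% of all genes tested. Immune markers, with 10 of 10 detected, summed to 22333 normalized counts in it, against 2584 and 2968 in the other WT crypts and 923 to 2767 in the Mtgr1-/- crypts. Its COX1 share was 5.61%, against 2.66% and 2.76% in the other WT crypts and 2.62% to 4.78% in Mtgr1-/-. Stroma and vessel markers summed to 302 in it, against 46 and 36 in the other WT crypts. Xist was 10177 in it, against 2.87 and 6.93. The part of these traits in the low values was not tested. Without this library the median over the family was -0.04, with 9 estimates above 0 and 25 below. Again 0 of these genes passed, where 4.21% of all genes did.

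Psmd6 (ENSMUSG00000021737.4, chromosome 14 of GRCm38, 14112174 to 14120984, minus strand), which encodes a lid subunit, was the crypt gene whose groups did not overlap. Its normalized counts were 1527, 1626 and 1254 in WT and 1826, 1860 and 1794 in Mtgr1-/-, so that the lowest Mtgr1-/- library lay above the highest WT library. The log2 fold change was 0.32 with a 95% interval from 0.06 to 0.59, and the adjusted p of 0.182 (limma) missed the threshold. At day 1 it stood at 2381, 2143 and 2342 against 2439.6, 2322 and 2259.9, and the groups overlapped there.

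No catalytic subunit passed the test in crypts. Psmb5, which carries the chymotrypsin-like activity that bortezomib blocks, had 1919, 1859 and 1502 in WT and 1822, 1777 and 1806 in Mtgr1-/- (log2 fold change 0.04, 95% interval -0.22 to 0.30, adjusted p = 0.885, limma). Psmb6, with the caspase-like activity, and Psmb7, with the trypsin-like activity, had log2 fold changes of 0.04 and 0.07. By role, the medians in crypts were 0.04 for the alpha ring, 0.04 for the beta ring, 0.12 for the ATPases, 0.12 for the other base subunits, 0.14 for the lid and 0.10 for the chaperones. Leaving out WT library 3 moved Psmb5 to -0.07, Psmb6 to -0.04 and Psmb7 to -0.08.

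**Figure D2:**
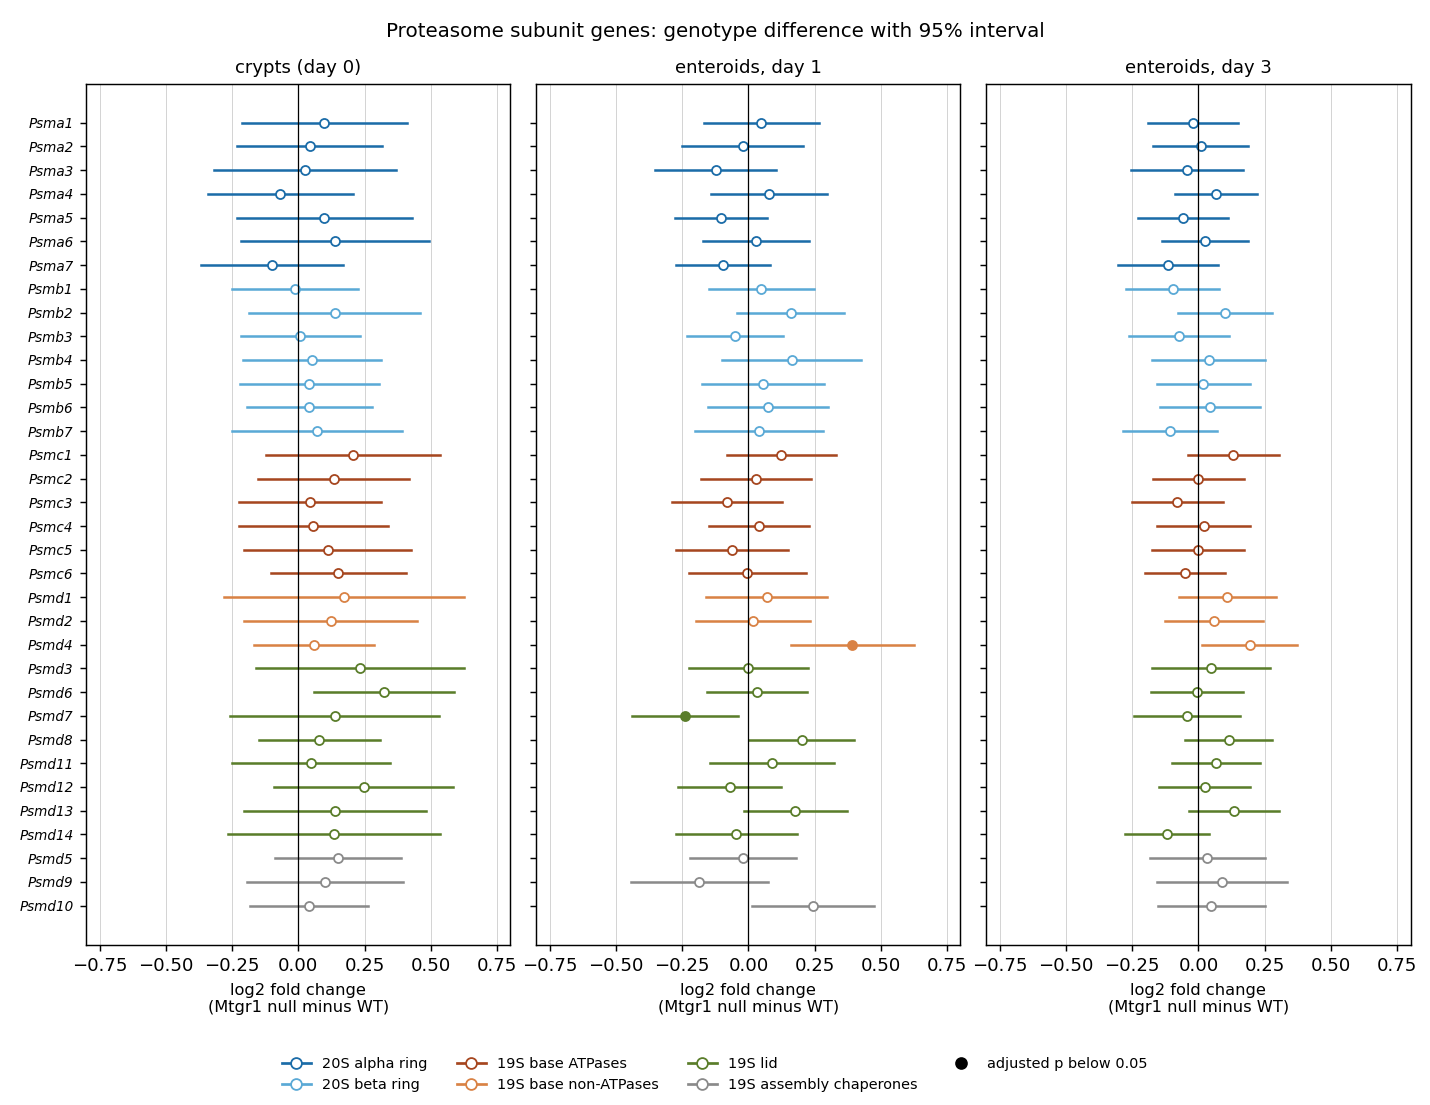
Log2 fold change of each of the 34 tested proteasome genes (Mtgr1-/- minus WT, with 95% intervals of the limma fit, 3 against 3 libraries), a panel for each time point, ordered by role in the complex. Most intervals cross 0, the filled points of Psmd4 and Psmd7 at day 1 are the only ones past an adjusted p of 0.05, and no estimate reaches 0.5 in either direction.

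At day 1, 2 of the 34 proteasome genes changed between the genotypes. Psmd4 rose and Psmd7 fell in Mtgr1-/- (adjusted p below 0.05, limma), where 58.9% of all genes tested passed, 30.0% higher and 28.9% lower, and 64.7% of the genes in the range of means of the family. The count at an unadjusted p below 0.05 was 4, against 8016 of all 12587 genes. On recovered reads edgeR and DESeq2 each gave 1 higher and 1 lower, where 58.6% and 59.5% of all genes passed. Without Mtgr1-/- library 2, 6 genes were higher and 0 lower, where 62.4% of all genes passed. Without WT library 1, WT library 3 or any other Mtgr1-/- library 0 were lower, where 49.0% to 51.6% of all genes passed. The groups did not overlap for 9 of the 34 genes, 5 higher and 4 lower, against 68.1% of all genes. The median absolute log2 fold change was 0.07 over the family, 0.51 over all genes and 0.42 over the genes in the same range of means, and the signed median was 0.03 with 20 estimates above 0 and 14 below.

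Psmd4 (ENSMUSG00000005625.15, chromosome 3 of GRCm38, 95032694 to 95042614, minus strand) encodes RPN10, the cap subunit that binds ubiquitin chains. In the WT day 1 enteroids it had 2911, 2976 and 3265 normalized counts, and in the Mtgr1-/- enteroids 4125, 3557 and 4355. Every Mtgr1-/- library lay above every WT library. The log2 fold change was 0.39 (SE 0.10, 95% interval 0.16 to 0.62, adjusted p = 0.0110, limma), and 17 of 19 alternatives kept it below 0.05, with adjusted p from 0.000749 to 0.503. It was lost when the libraries were scaled to equal totals, which moved the median of all genes to -0.33 and Psmd4 to 0.07 (adjusted p = 0.503, limma), and under quantile normalization, which gave 0.14 (adjusted p = 0.172).

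Psmd7 (ENSMUSG00000039067.5, chromosome 8 of GRCm38, 107580381 to 107588464, minus strand) encodes RPN8, the lid subunit that pairs with the deubiquitinase. It had 4279, 3692 and 4294 normalized counts in the WT day 1 enteroids and 3484, 3432 and 3457 in the Mtgr1-/- enteroids. The groups did not overlap, and the 3 Mtgr1-/- libraries were close together. The log2 fold change was -0.24 (SE 0.09, 95% interval -0.44 to -0.04, adjusted p = 0.0444, limma). The call held in 11 of 19 alternatives. It was lost without WT library 1 (adjusted p = 0.143), WT library 3 (0.148) or the Mtgr1-/- libraries 1 (0.0986), 2 (0.0631) and 3 (0.0836), each with limma.

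Psmd2 and Psmd14 did not pass at day 1. Psmd2, which encodes RPN1, a scaffold that also binds ubiquitin, had 9642, 8370.5 and 9806 in WT and 9392, 9129 and 9569 in Mtgr1-/- (log2 fold change 0.02, 95% interval -0.20 to 0.23). Psmd14, the deubiquitinase of the lid that cuts ubiquitin from the substrate, had 3759.7, 3245 and 3775 against 3771, 3231 and 3441 (-0.05, interval -0.27 to 0.18). The groups overlapped for both genes.

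Among the catalytic subunits at day 1, Psmb5 had 2799, 2461 and 3007 normalized counts in WT and 2878, 2678 and 3017 in Mtgr1-/-. Its log2 fold change was 0.06 (95% interval -0.17 to 0.28, adjusted p = 0.647, limma). Psmb6 gave 0.07 (-0.15 to 0.30) and Psmb7 gave 0.04 (-0.20 to 0.28). All 3 were small against the spread between libraries. WT library 2 was the lowest of its group for 31 of the 34 genes and Mtgr1-/- library 2 for 28, where this held for 38.9% and 40.1% of all genes tested. Under scaling to equal totals the estimates of Psmb5, Psmb6 and Psmb7 turned to -0.27, -0.25 and -0.28, against a median of -0.33 over all genes.

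At the edge of the threshold at day 1 stood Psmd10 (log2 fold change 0.24, adjusted p = 0.0649, limma), which encodes the chaperone gankyrin, and the lid gene Psmd8 (0.20, adjusted p = 0.0736, limma). Both had groups that did not overlap, with 563, 509 and 519 normalized counts for Psmd10 in WT against 632, 593 and 661 in Mtgr1-/-. These 2 genes were named after their values were seen. When mouse numbers were used as a replicate block, a pairing that the labels do not give, Psmd4, Psmd8 and Psmd13 were called higher and Psmd7 lower. That fit called 63.8% of all genes. By role, the medians at day 1 were -0.02 for the alpha ring, 0.06 for the beta ring, 0.01 for the ATPases, 0.07 for the other base subunits, 0.02 for the lid and -0.02 for the chaperones.

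At day 3, none of the 34 genes passed an adjusted p of 0.05 in limma, where 59.0% of all genes did, 29.9% higher and 29.1% lower, and 61.8% of the genes in the same range of means. At an unadjusted p below 0.05 the count was 1, against 8179 of all 12782 genes. On recovered reads edgeR and DESeq2 each called 1, beside 56.6% and 54.4% of all genes. The gene was Psmd4 in each case. These count fits set 3 WT libraries against 2, since the reads of Mtgr1-/- library 2 could not be recovered, and limma without that library also called Psmd4 (0.22, adjusted p = 0.0363). The groups did not overlap for 7 of the 34 genes, 5 higher and 2 lower, against 68.8% of all genes. The median log2 fold change was 0.02, 21 estimates were above 0 and 13 below, and they ranged from -0.12 to 0.19. The median absolute value was 0.05 over the family, 0.44 over all genes and 0.35 over the genes in the same range of means.

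Psmd4 again had the highest estimate. Its day 3 values were 2462, 2727 and 2759 in WT and 3057, 2911 and 3109 in Mtgr1-/-, without overlap. The log2 fold change was 0.19 (SE 0.08, 95% interval 0.02 to 0.37, adjusted p = 0.0602, limma), and 4 of 19 alternatives put it below 0.05, while scaling to equal totals turned it to -0.0080. The lowest estimate was that of Psmd14, with 2752, 2806 and 2945 in WT and 2624, 2572 and 2639.8 in Mtgr1-/-. Its log2 fold change was -0.12 (95% interval -0.28 to 0.04, adjusted p = 0.172, limma), and every Mtgr1-/- library lay below every WT library.

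The remaining named genes stayed within narrow intervals at day 3. Psmd7 had 3063, 3233 and 3388 in WT and 3280.2, 2838 and 3299 in Mtgr1-/- (log2 fold change -0.04, adjusted p = 0.690, limma), so that the groups, apart at day 1, overlapped. Psmb5 gave 0.02 (95% interval -0.16 to 0.20), Psmb6 0.04 (-0.14 to 0.23), Psmb7 -0.11 (-0.28 to 0.07) and Psmd2 0.06 (-0.13 to 0.24). Library 1 of WT was the lowest of its group for 30 of the 34 genes, where this held for 37.9% of all genes tested.

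Intervals give the size of difference that these libraries leave possible under the authors' normalization, and they hold no uncertainty of the scaling. Under equal totals, Psmd14 at day 1 stood at -0.37, below its interval. The 95% interval of the log2 fold change lay wholly within -0.5 to 0.5 for 27 of the 34 members in crypts, for 33 at day 1 and for all 34 at day 3. Over all genes this held for 5373 of 12980, 2745 of 12587 and 3566 of 12782, and in the range of means of the family for 63.9%, 32.5% and 40.5%. No proteasome gene had an absolute log2 fold change of 1 or more at any time point, against 11.9%, 22.6% and 21% of all genes tested.

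**Figure D3:**
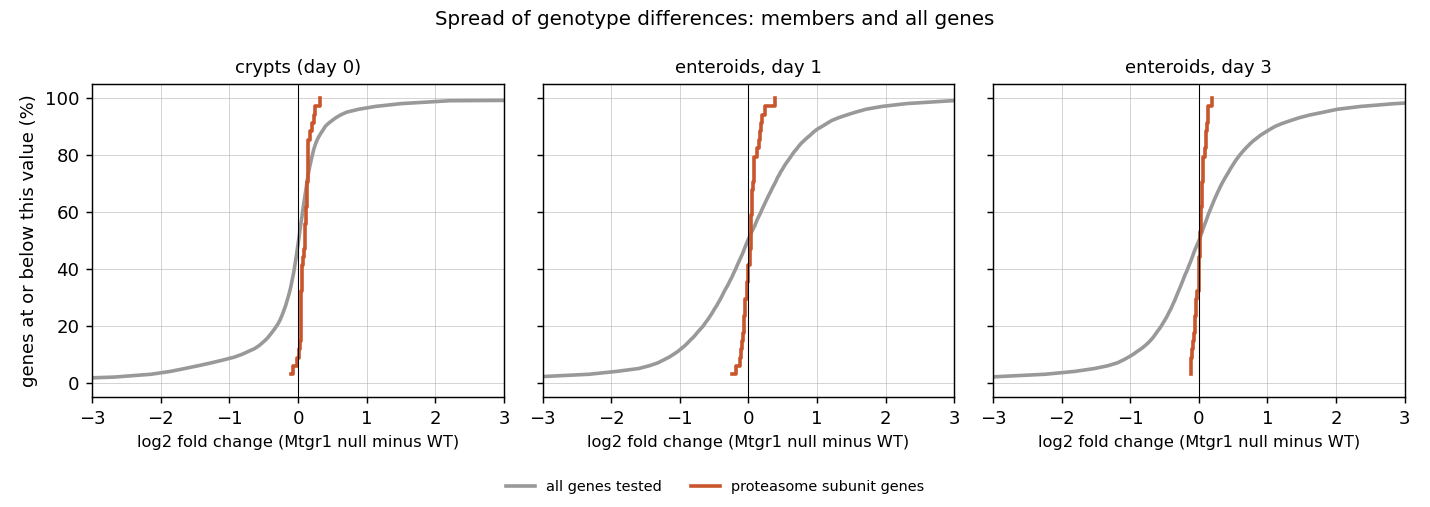
Percent of genes at or below each log2 fold change (Mtgr1-/- minus WT, horizontal axis, drawn from -3 to 3) for the 34 tested proteasome genes (orange) and all genes tested (gray), with a panel for each time point. The steps of the proteasome genes stay close to 0 in each panel, with a median absolute value of 0.10, 0.07 and 0.05 against 0.18, 0.51 and 0.44 for all genes.

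The sign of the family as a whole in enteroids depended on the scaling. With the libraries brought to equal totals, 0 of the 34 genes rose and 26 fell at day 1, and 0 rose and 8 fell at day 3, while 61.9% and 61.3% of all genes passed. The median of the family was then -0.29 at day 1 and -0.18 at day 3, and that of all genes -0.33 and -0.20, so that relative to the median gene the family stood at 0.04 and 0.02. Quantile normalization called 1 gene up and 21 down at day 1, then 0 up and 9 down at day 3, with medians of -0.23 and -0.16, while 58.1% and 59.2% of all genes passed. The median of all genes was then -0.02 and -0.04, so that the family stood below the median gene by this scaling, at -0.21 and -0.12. The position of the family relative to the median gene therefore also depended on the scaling.

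The genotype difference changed between time points for 1 gene in each of the comparisons with crypts. For Psmd4 it was more positive at day 1 than in crypts by 0.33 (SE 0.12, adjusted p = 0.0424, limma on the 18 libraries together, each mouse as a random effect), where 41.4% of all genes passed. Its crypt values had overlapped, with 1896, 2082 and 1743 in WT and 2034, 1868 and 2045 in Mtgr1-/-. For Psmd6 the difference was more negative at day 3 than in crypts by -0.33 (SE 0.12, adjusted p = 0.0488, limma), where 31.6% of all genes passed. Between day 3 and day 1, 0 members passed (limma), beside 0.0329% of all genes, and 0 had an unadjusted p below 0.05. Without Mtgr1-/- mouse 2, 7.26% of all genes passed, with 0 members past the threshold and 3 at an unadjusted p below 0.05 (limma). The share of all genes at the unadjusted level was not taken for this contrast. No other tool was run on this contrast.

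Both changes were close to the threshold. Psmd4 kept an adjusted p below 0.05 in 6 of 11 alternatives (0.0175 to 0.420, limma) and lost it without WT mouse 1 (0.140), WT mouse 2 (0.199), Mtgr1-/- mouse 1 (0.123) or Mtgr1-/- mouse 3 (0.145). Psmd6 kept it in 3 of 11 (0.0101 to 0.231, limma). It was lost when any 1 mouse was left out, with the mouse as a fixed effect (0.0857) and with the replicate block (0.0578), and without WT mouse 3, whose crypt library was low for the whole family, the change was -0.18.

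The family moved with time in culture in both genotypes. Because the tables were normalized separately, the log2 change of each gene's share of the reads was taken within each mouse. The median change over all genes of that mouse was then taken off, as a description without a test. From crypts to day 1, 26 of the 34 genes were higher in 6 of 6 mice, where 15.3% of all genes were, with a median log2 change of 0.41 in WT and 0.34 in Mtgr1-/-. From day 1 to day 3, 29 of the 34 were lower in 6 of 6 mice, where 13.6% of all genes were, with a median of -0.34 in both. Over the whole course from crypts to day 3 the medians were 0.07 in WT and -0.01 in Mtgr1-/-. As a plain share of the reads, without the median change taken off, the genotypes were further apart. The medians were then 0.64 in WT and 0.20 in Mtgr1-/- from crypts to day 1, -0.28 and -0.15 from day 1 to day 3, and 0.39 and 0.04 from crypts to day 3.

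The cap genes Psmd7 and Psmd4 had the largest mean changes from crypts to day 1. For Psmd7 they were 0.83, 0.51 and 1.41 in WT mice 1 to 3 and 0.66, 0.48 and 0.56 in the Mtgr1-/- mice, and for Psmd4 0.46, 0.36 and 0.80 against 0.90, 0.81 and 0.97. The third WT mouse gave the largest WT change in both, and its crypt library was the low one. Psma4, the top of the family per kilobase in crypts, changed by -0.12, -0.32 and 0.19 in WT and by 0.05, 0.00022 and 0.21 in Mtgr1-/-, without a common direction.

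**Figure D4:**
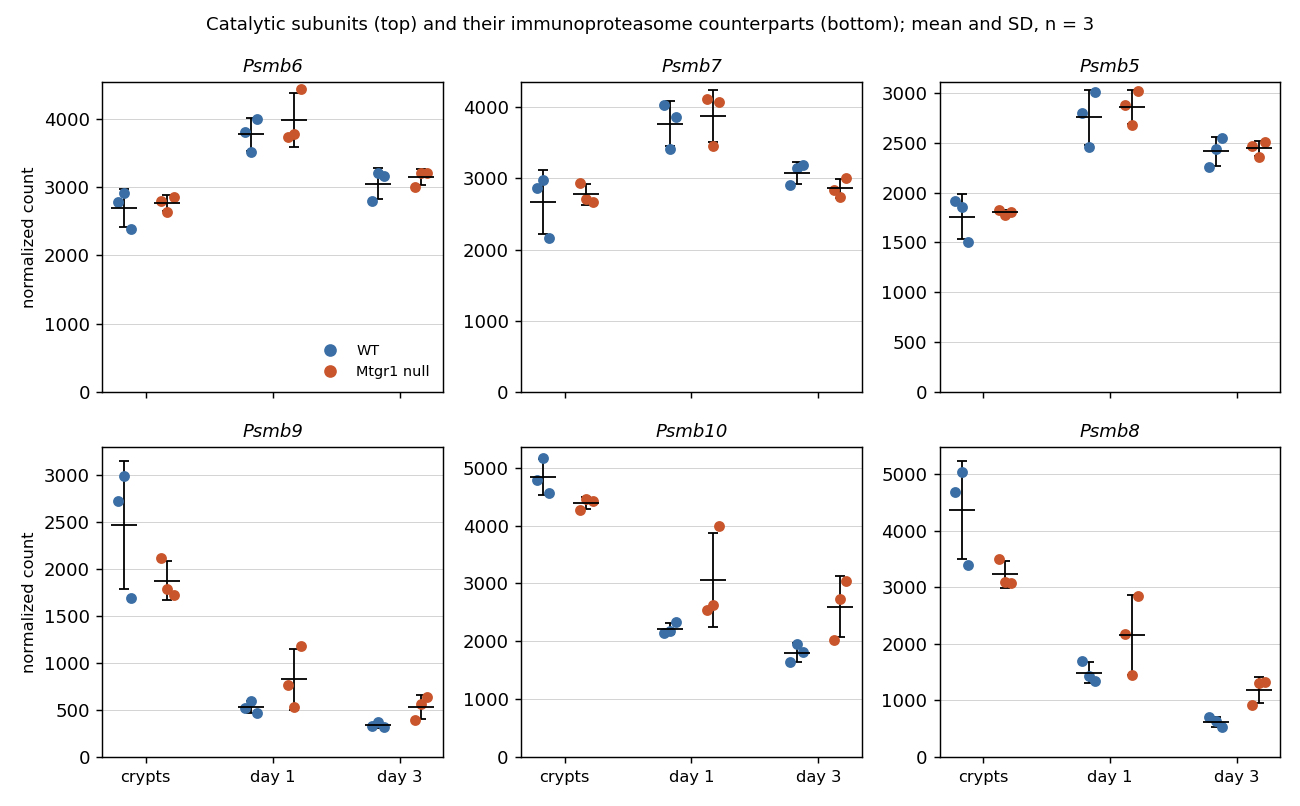
Normalized counts of the constitutive catalytic genes Psmb6, Psmb7 and Psmb5 (top row) and of the inducible genes that take their places, Psmb9, Psmb10 and Psmb8 (bottom row), in each library by time point (blue WT, orange Mtgr1-/-, bars mean and SD of 3 libraries; the 3 time points were normalized separately). The genotypes overlap in every panel of the top row, and in the bottom row all Mtgr1-/- libraries of day 3 lie above the WT libraries.

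The inducible catalytic genes are not members of the family described here and are given beside their constitutive counterparts. Psmb8, Psmb9 and Psmb10 replace Psmb5, Psmb6 and Psmb7 in the immunoproteasome, a form of the core that produces peptides for antigen presentation. All 3 of 3 were higher in Mtgr1-/- at day 3, where 29.9% of all genes were, and 0 of 3 passed in crypts or at day 1 (limma). At day 1 the call depended on the fit. With the replicate block Psmb10 passed (0.43, adjusted p = 0.0257, limma), and DESeq2 on recovered reads called Psmb8 (0.53, adjusted p = 0.0359), Psmb9 (0.65, 0.0269) and Psmb10 (0.46, 0.0230). Without Mtgr1-/- library 2 all 3 passed as well (adjusted p = 0.00320, 0.00618 and 0.0317, limma), and without Mtgr1-/- library 1 Psmb10 did (0.0394). Psmb8 had 711, 629.7 and 524 normalized counts in the WT day 3 enteroids and 922, 1313 and 1332 in the Mtgr1-/- enteroids (log2 fold change 0.93, SE 0.17, adjusted p = 0.00224, limma). Psmb9 gave 0.61 (adjusted p = 0.0191) and Psmb10 0.51 (adjusted p = 0.0197), both lost without WT library 1, WT library 3 or Mtgr1-/- library 3, with adjusted p from 0.0539 to 0.0729 (limma), and under scaling to equal totals.

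In crypts the estimates of the inducible genes pointed the other way, with -0.42 for Psmb8, -0.36 for Psmb9 and -0.14 for Psmb10, and none passed (adjusted p = 0.217, 0.435 and 0.428, limma). Without WT crypt library 3, Psmb8 passed at -0.59 (adjusted p = 0.0317) and Psmb9 at -0.61 (adjusted p = 0.0486, limma). The summed count of the 3 inducible genes over that of the 3 constitutive ones was 1.61, 1.70 and 1.60 in WT crypts and 1.31, 1.31 and 1.26 in Mtgr1-/- crypts. At day 1 it was 0.409, 0.449 and 0.381 against 0.511, 0.465 and 0.696, and at day 3 0.337, 0.337 and 0.298 against 0.400, 0.554 and 0.575. The groups did not overlap at any time point, with WT above in crypts and Mtgr1-/- above in enteroids, and these ratios were not tested. Immune cells express the inducible genes strongly, and in the day 3 enteroids 3 of 10 immune markers reached a mean of 10, with sums of 95 to 109 in WT and 105 to 426 in Mtgr1-/-. Their part in the ratio was not tested.

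**Figure D5:**
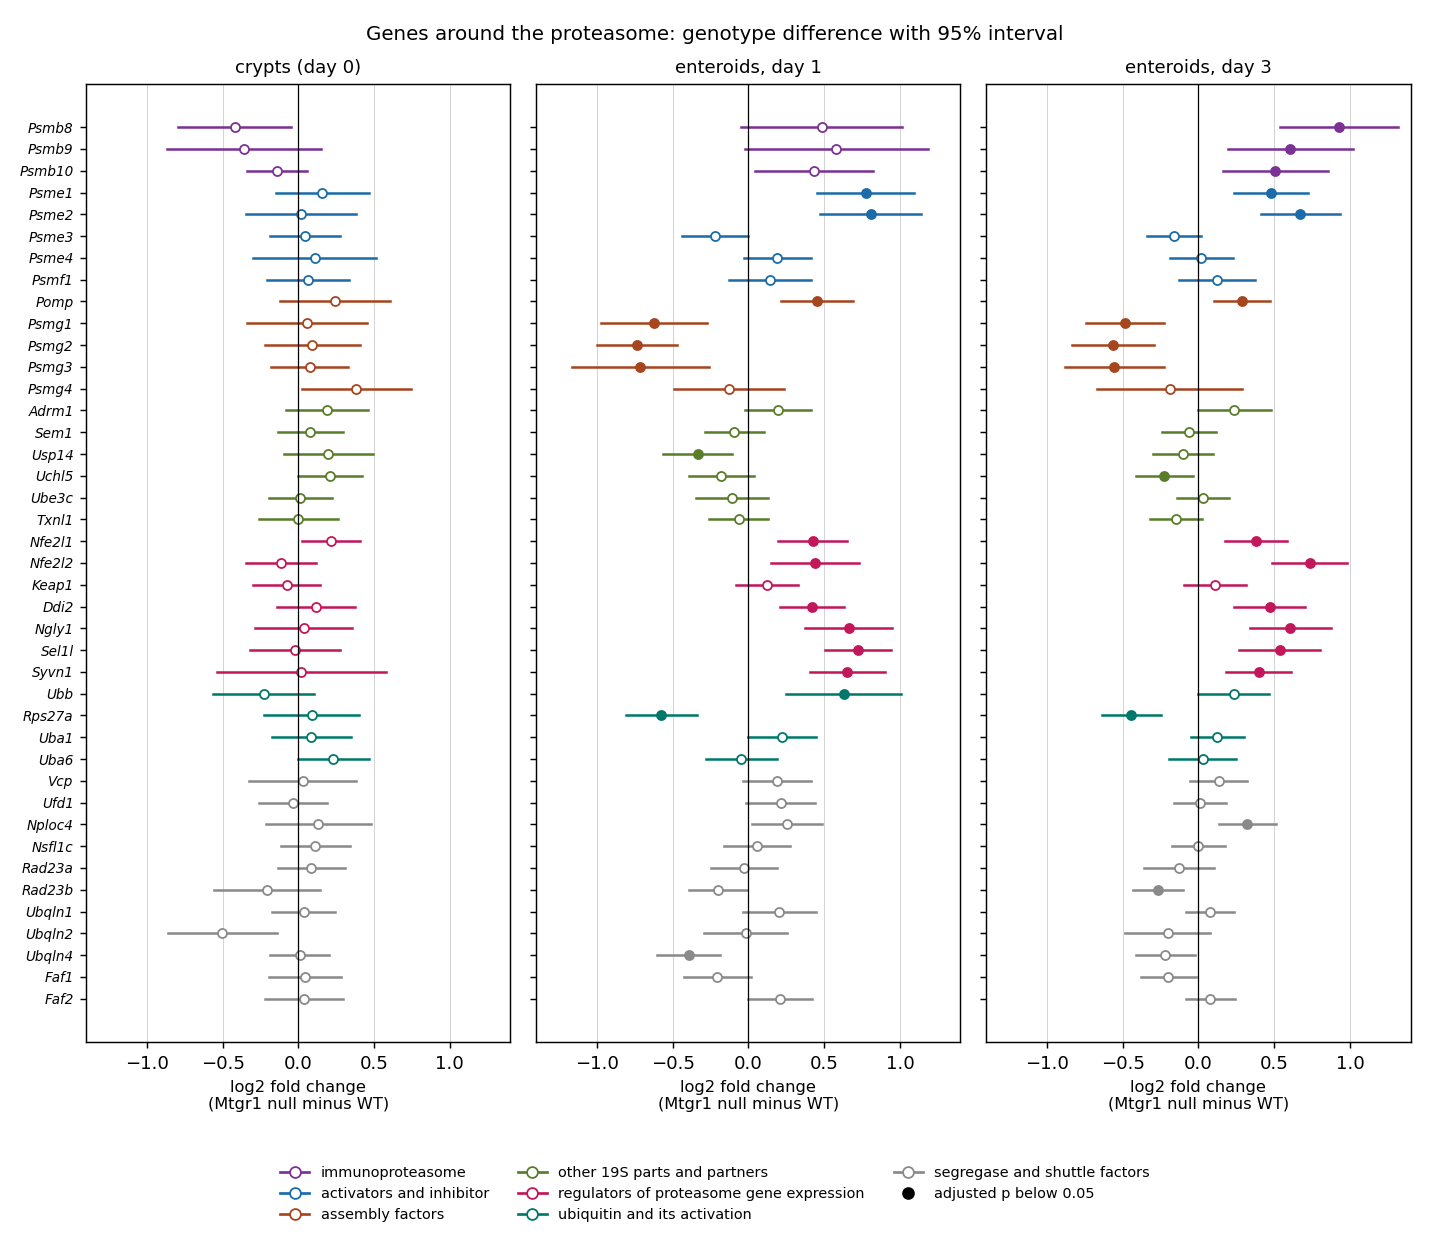
Log2 fold change (Mtgr1-/- minus WT, 95% intervals of the limma fit) of 41 tested genes around the proteasome, with a panel for each time point, grouped as inducible subunits, activators, assembly factors, partners, regulators, ubiquitin genes and shuttle factors. Filled points pass an adjusted p of 0.05. Regulators stand to the right of 0 and the Psmg assembly factors to the left in both enteroid panels.

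Genes around the proteasome were read from lists chosen by function. Of 41 tested genes on lists of inducible subunits, activators, assembly factors, partners, regulators, ubiquitin genes and shuttle factors, 0 passed in crypts (limma), where 4.73% of all genes did. At an unadjusted p below 0.05 the count was 4 in crypts, against 2395 of all 12980 genes. At day 1, 10 rose and 6 fell in Mtgr1-/-, and at day 3, 13 rose and 6 fell. The shares of all tested genes that passed were 30.0% upward with 28.9% downward at day 1, and 29.9% with 29.1% at day 3. The activator genes Psme1 and Psme2 encode the 11S cap that opens the core without ubiquitin. Psme1 had 3332, 3245 and 2876 in WT and 5389, 4472 and 6459 in Mtgr1-/- at day 1 (log2 fold change 0.77, adjusted p = 0.00232, limma). Psme2 gave 0.81 at day 1 and 0.67 at day 3, and the other 3 of 5 genes on the list passed at neither day.

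Assembly factors of the core went in opposite directions. Pomp, the maturation factor that is consumed when the core closes, had 2897, 2723 and 2826 in WT and 4072, 3339 and 4198 in Mtgr1-/- at day 1. Its log2 fold change there was 0.45 (limma, adjusted p = 0.00681), and it was 0.29 at day 3. With equal totals, Pomp stood at 0.13 (adjusted p = 0.163, limma) and 0.09, and its day 3 call was also lost without WT library 1 (0.0597) and under quantile normalization (0.0872). Psmg1, Psmg2 and Psmg3, which encode chaperones of the alpha ring, fell by 0.63, 0.73 and 0.71 on the log2 scale at day 1 and by 0.49, 0.57 and 0.55 at day 3 (adjusted p from 0.00128 to 0.0148, limma). The day 1 call of Psmg3 was lost without Mtgr1-/- library 1 (-0.61, adjusted p = 0.0548, limma). For Psmg2 the values at day 1 were 528, 559 and 608 in WT and 349, 358 and 311 in Mtgr1-/-, without overlap. Their partner Psmg4 did not pass at either day.

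Of 7 regulators of proteasome gene expression, 6 were higher in Mtgr1-/- at day 1 and 6 at day 3, where 30.0% and 29.9% of all genes were. Nfe2l1, which encodes NRF1, had 3773, 3433 and 4018 normalized counts in WT and 5095, 4569.7 and 5403 in Mtgr1-/- at day 1 (log2 fold change 0.42, adjusted p = 0.00727, limma), and 0.38 at day 3. Nfe2l2, which encodes the related factor NRF2, gave 0.44 at day 1 and 0.73 at day 3. With equal totals, Nfe2l1 stood at 0.10 (adjusted p = 0.299, limma) at day 1 and 0.18 at day 3 and Nfe2l2 at 0.12 at day 1, none past the threshold. The same 3 calls were lost under quantile normalization (0.14, 0.17 and 0.09), and that of Nfe2l2 at day 1 without WT library 3 (adjusted p = 0.0700, limma). Ddi2, the protease that activates NRF1, gave 0.42 and 0.47, and Ngly1, which removes its sugars, gave 0.66 and 0.61. Sel1l (0.73 and 0.54) and Syvn1 (0.65 and 0.40), which release it from the endoplasmic reticulum, were higher too, and Keap1 did not pass (0.12 and 0.11). Ddi2, and Syvn1 at day 3, were not followed through the alternative fits, so their dependence on the scaling is not given.

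The ubiquitin genes were split. Ubb was higher at day 1 (log2 fold change 0.63, adjusted p = 0.0116, limma; 0.16 and 0.157 under quantile normalization), and Rps27a, which encodes ubiquitin fused to a ribosomal protein, was lower at both days (-0.57 and -0.44). Of the cap partners, the deubiquitinase gene Usp14 was lower at day 1 (-0.34, adjusted p = 0.0200) and Uchl5 at day 3 (-0.22, adjusted p = 0.0450, limma). Usp14 was lost without WT library 1 (0.0743) or 3 (0.0584), and Uchl5 without any 1 library other than Mtgr1-/- library 1, with adjusted p from 0.0669 to 0.150 (limma). Of 11 segregase and shuttle factors, Ubqln4 was lower at day 1 (-0.39), and at day 3 Nploc4 was higher (0.32) and Rad23b lower (-0.27). Nploc4 was lost under quantile normalization (0.15, adjusted p = 0.117) and equal totals (0.12, adjusted p = 0.239), and Rad23b without WT library 3 (adjusted p = 0.0657, limma).

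The libraries were deep, with 22035316 to 28621990 reads on genes in the 16 libraries whose reads could be recovered, and every tested member had a mean above 500 normalized counts. Epithelial markers were detected in all groups, 7 of 7, and their sums were higher in Mtgr1-/-. They were 206342 to 263628 in WT and 288800 to 386582 in Mtgr1-/- at day 1, and 148823 to 164042 and 277117 to 287595 at day 3. At an adjusted p below 0.05 (limma), 4 of the 7 were higher at day 1 and 6 at day 3, where 30.0% and 29.9% of all genes were. In crypts 1 of the 7 was higher, where 1.58% of all genes were. Proliferation markers summed to 20868 to 29581 in the Mtgr1-/- day 1 libraries and to 49452 to 50380 in WT, and markers of Paneth and goblet cells to 648 to 5736 against 54970 to 65633. These sums moved with the genotype differences above, and their part in them was not tested. Xist was high in WT mouse 3 and in Mtgr1-/- mouse 1 at every time point, so both sexes were present in both genotypes.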

How the data were processed

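mRNA of 18 libraries was sequenced by the authors as stranded single reads of 50 bases. Reads were trimmed by the authors (fastp 0.20.0) and assigned to transcripts with Salmon 1.3.0, which shares reads between similar transcripts by estimate, and summed them per gene. The deposited signal is this gene-level count divided by 1 normalization factor per library, within the table of each time point. The authors also deposited a mean signal per gene, log2 fold changes with standard errors, a test score and p-values of their comparison with DESeq2 1.26.0, which were not used. The paper names mouse GENCODE as the source of the authors' reference and does not name the genome build. Gene coordinates come from GENCODE on GRCm38, matched by gene identifier.

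Groups and mouse numbers came from the labels, and the replicates are separate mice. At each time point, genes reaching a mean of 10 entered limma 3.58.1 (trend, R 4.3.3) as log2(normalized count + 1), 3 against 3, two-sided, with Benjamini-Hochberg adjustment over all genes tested and a threshold of 0.05. The added 1 shrinks the fold change of low genes. An exact permutation test of 3 against 3 cannot go below 0.1 for a single gene, and the adjusted p-values rest on the moderated model of limma. Whether a genotype difference changed between time points was tested on the 18 libraries together, each mouse being a random effect (correlation within a mouse -0.0048). Steps between low values gave whole reads in 16 libraries, and these entered edgeR 4.0.16 and DESeq2 1.42.0 as alternatives, without WT library 2 in crypts and Mtgr1-/- library 2 at day 3. Libraries of a group differed by far more than sampling noise (lowest chi-square per gene 13.8 over 14 pairs). The scripts were tested on simulated data.

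Libraries with the same mouse number deviated together at day 1 (correlations across genes 0.116, 0.231 and 0.216), less evenly in crypts (0.076, 0.274 and 0.346) and not at day 3 (-0.0067, -0.0023 and -0.016). The labels do not pair the genotypes, so the replicate block stands only as an alternative fit. It was run at every time point and for the changes between them.

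The members, the lists of related genes and the markers were chosen with earlier results of these data known. Always named were the catalytic subunits, Psmd14, Psmd2, Psmd4, Psma8, Psmb11, the inducible subunits, Psme1, Psme2, Pomp, Nfe2l1 and Nfe2l2, and beside them, past the threshold, the 5 largest rises and 5 largest falls among members and the 3 in each direction in each related list and each change between time points. Alternatives were pseudocounts of 0.1 and 8, other filters, median-ratio and quantile rescaling, no trend, array weights, the replicate block, count tests, and each library left out. Scaling to equal totals and Xist as a covariate were chosen after seeing the data. Of the listed related genes, 1 stood on more than 1 row and was not used. Results for some single genes of these lists are not reported here.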

Additional observations from a re-analysis of the deposited data

Results flagged for a closer look

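These genes had a genotype difference (Mtgr1-/- minus WT, log2) that changed between crypts and enteroids, tested with limma on the 18 libraries together. Of all genes tested, 41.4% passed for day 1 against crypts and 31.6% for day 3 against crypts. Among the proteasome subunits, the difference was more positive at day 1 than in crypts by 0.33 for Psmd4 (adjusted p = 0.0424), and at day 3 it was more negative for Psmd6, by -0.33 (adjusted p = 0.0488). Of the inducible subunits, Psmb8 changed by 0.90 at day 1 and by 1.35 at day 3 (adjusted p = 0.0281 and 0.00650), Psmb9 by 0.94 at day 1 (adjusted p = 0.0471), and Psmb10 by 0.57 at day 1, just past the threshold, and 0.65 at day 3 (adjusted p = 0.0373). The activator gene Psme1 changed by 0.61 at day 1 (adjusted p = 0.0186), and Psme2 by 0.79 at day 1 and 0.65 at day 3 (adjusted p = 0.00953 and 0.0311). Nfe2l2 changed by 0.56 at day 1 and by 0.85 at day 3 (adjusted p = 0.0127 and 0.00237). Leaving out a single mouse put each of these changes above the threshold for at least 1 mouse, except those of Psmb8 and Nfe2l2 at day 3.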

How the results depend on the processing

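The absence of proteasome genes past the threshold in crypts held under all alternatives run, which called 1.35% to 16.2% of all genes. The counts in enteroids depended mainly on the scaling. Under quantile normalization 21 members were lower at day 1 (median -0.23) and 9 at day 3 (median -0.16), where 58.1% and 59.2% of all genes passed. Under equal totals 0 were higher and 26 lower at day 1 (median -0.29) and 8 lower at day 3 (median -0.18). Of all genes, 61.9% and 61.3% then passed. Array weights gave 6 higher and 2 lower at day 1 and 3 higher at day 3, where 69.9% and 72.0% of all genes passed. The replicate block gave 3 higher at day 1, where 63.8% of all genes passed. It moved no other count of a single time point by over 1.5 times. At day 3, edgeR and DESeq2, fitted without Mtgr1-/- library 2, gave 1 higher, where 56.6% and 54.4% of all genes passed. Without a filter, without a trend or with Xist as a covariate, 0 were lower at day 1, where 44.3%, 57.0% and 55.6% of all genes passed. Leaving out 1 library gave 1 to 6 higher and 0 to 1 lower at day 1, where 48.9% to 62.4% of all genes passed. At day 3 it gave 0 to 1 higher, where 47.8% to 60.2% of all genes passed. The 1 came without Mtgr1-/- library 2. For the change of the genotype difference from crypts to day 1, quantile normalization gave 0 members more positive and 15 more negative, where 43.0% of all genes passed. Leaving out a mouse gave 0 to 1 more positive and 0 to 3 more negative, where 27.6% to 45.6% of all genes passed. From crypts to day 3, 3 were more negative under quantile normalization, where 37.1% of all genes passed. With the mouse as a fixed effect, with the replicate block and without any 1 mouse it was 0. The shares of all genes were then 29.0%, 32.7% and 13.7% to 30.6%. Apart from scaling, the cause of these shifts was not tested.

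Of the single genes named, 39 values changed sign. In crypts, Psme2 turned to -0.0058 with median-ratio rescaling, -0.026 with quantile normalization and -0.14 with array weights, and array weights turned Psmb5, Psmb6 and Psmb7 to -0.069, -0.0013 and -0.012. Leaving out 1 crypt library gave -0.068 to 0.11 for Psmb5, -0.044 to 0.10 for Psmb6, -0.076 to 0.16 for Psmb7, -0.062 to 0.25 for Psmd14, -0.024 to 0.20 for Psmd2, -0.0042 to 0.12 for Psmd4 and -0.16 to 0.11 for Psme2, each lowest without WT library 3. At day 1, Psmd2 turned to -0.013 with median-ratio rescaling and -0.014 with edgeR, and Psmd14 to 0.032 with array weights. Quantile normalization gave -0.15, -0.20, -0.22 and -0.35 for Psmb5, Psmb6, Psmb7 and Psmd2 at day 1, and equal totals -0.27, -0.25, -0.28 and -0.30. Leaving out 1 library gave -0.024 to 0.12, -0.0063 to 0.12, -0.028 to 0.12 and -0.055 to 0.059 for these 4 genes, and -0.12 to 0.0073 for Psmd14. At day 3, quantile normalization gave -0.12, -0.13 and -0.24 for Psmb5, Psmb6 and Psmd2. Equal totals gave -0.18, -0.16 and -0.14, and -0.0080 for Psmd4. Leaving out 1 library at day 3 gave -0.029 to 0.059 for Psmb5 and -0.019 to 0.081 for Psmb6.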
